A study of Rattus norvegicus with 16 samples.

Results

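Wfdc1, Camkv, Gprc5a and Gnat2 are 4 genes with little written about them in the kidney filter, and they were followed through a rat model of nephrotic syndrome and its treatment with either of 2 drugs. They are 4 of the 36351 genes in the deposited count table and 4 of the 17061 genes with enough reads to be tested. They were chosen by name, for a large rise in the diseased glomeruli or a large fall under a drug in earlier results from these same libraries. The differences between diseased and sham glomeruli, and between drug-treated and untreated diseased glomeruli, are therefore given as a description, and nothing is concluded from calls in them. The comparisons of each drug group with sham and of the drugs with each other did not choose the genes, and these were tested. The libraries that enter them did take part in the choice.

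Glomeruli, the filtering capillary tufts of the kidney, were taken on day 11, and total RNA freed of ribosomal and globin transcripts was sequenced. Sham Control rats were healthy and received vehicle by mouth each day. PAN only rats received puromycin aminonucleoside (PAN), a toxin of the podocyte, at 50 mg/kg into a tail vein on the first day of the experiment, and vehicle by mouth thereafter. PAN + MP rats received PAN and then methylprednisolone, a glucocorticoid, at 15 mg/kg daily by intraperitoneal injection, and PAN + Pio rats received PAN and then pioglitazone, an activator of PPAR gamma, a nuclear receptor, at a daily oral dose of 10 mg/kg. Each group had 4 libraries from 4 rats, and their strain, sex and age are not given in the sources used here. At issue was which changes of the disease are lessened by each drug and which by both.

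The libraries held 22802109 to 32571877 counted reads. Library numbers follow the order of the count columns within a group and carry no meaning. Levels are in CPM, read counts scaled to a common library size. Where all libraries of a group lay above or below those of another, the share of all tested genes so separated was not counted. Nothing is read from such separation. The podocyte markers Nphs1, Synpo and Wt1 were present in every library, with Nphs1 at 1525 to 3317 CPM, Synpo at 794 to 1712 CPM and Wt1 at 289.7 to 568 CPM. In bulk RNA, a change in the number of cells of a type and a change in RNA per cell cannot be told apart.

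Each of these genes is best known outside the glomerulus. Wfdc1 encodes a small secreted protein with a WAP four-disulfide core, a fold found in many protease inhibitors, and is known from the stroma of the prostate. Camkv encodes a calmodulin-binding protein of neuronal vesicles that resembles the calmodulin-dependent kinases but is not known to phosphorylate substrates. Gprc5a encodes an orphan receptor of the class C G protein-coupled receptors, is induced by retinoic acid and is abundant in lung epithelium. Gnat2 encodes the alpha subunit of cone transducin, the G protein that carries the signal from light-activated cone opsins to phosphodiesterase.

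Of the 4 genes, 1 matched RefSeq's promoter table of build GRCr8, Camkv. Its window is shown because no other of the 4 genes had a match. The window runs from 250 bases before to 50 bases after the start of the gene and lies at chr8:117505189-117505488 on the plus strand, with GC boxes in capitals.
Camkv promoter: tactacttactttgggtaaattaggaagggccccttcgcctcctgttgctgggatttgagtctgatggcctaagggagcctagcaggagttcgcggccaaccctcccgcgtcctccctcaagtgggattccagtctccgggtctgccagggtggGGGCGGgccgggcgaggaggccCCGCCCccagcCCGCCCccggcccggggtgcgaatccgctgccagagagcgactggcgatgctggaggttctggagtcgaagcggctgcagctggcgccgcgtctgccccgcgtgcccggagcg
A GC box is the motif GGGCGG on either strand, and the window held 3 of them, starting at positions 155, 177 and 188 counted from 1 at its 5′ end. Of 33469 promoter windows of the same length, 33.1% held at least 1 GC box and 8.97% held at least 3. G and C made up 68.3% of the window, against a median of 51.7% over all windows, and it held 26 CG dinucleotides, against a median of 7. The glucocorticoid response element, the PPAR response element, the CArG box, the TATA box TATAAA, the AP-1 site TGANTCA and the TEAD site GGAATG had no match on either strand, and 0.0717%, 0.0538%, 1.64%, 14.2%, 7.33% and 14.2% of all windows held one.

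Wfdc1 was low in sham glomeruli, high in all diseased rats without a drug, and far down toward sham again under both drugs. In Sham Control it stood at 0.792, 0.884, 0.670 and 0.428 CPM in libraries 1 to 4, from 11 to 20 reads each. In PAN only the levels were 33.0, 29.2, 10.8 and 10.8 CPM. The lowest PAN only library was 12.2 times the highest sham library, and within PAN only the libraries fell into a pair near 30 and a pair near 11 CPM. Under methylprednisolone the levels were 2.35, 1.31, 0.982 and 1.58 CPM. Under pioglitazone they were 1.49, 0.805, 0.978 and 1.70 CPM. The means under methylprednisolone and pioglitazone were 2.24 and 1.79 times the sham mean. All 8 drug-treated libraries lay below all 4 PAN only libraries.

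As a description, Wfdc1 was higher in PAN only than in sham by 4.92 ± 0.45 on the log2 scale (SE, n = 4 per group), the change ranked 8 among the 17061 tested genes. Against PAN only it stood at -3.75 ± 0.40 under methylprednisolone and at -4.07 ± 0.42 under pioglitazone. Against sham, which did not choose the gene, the difference was 1.16 ± 0.45 under methylprednisolone (edgeR quasi-likelihood, adjusted p = 0.0951) with a 95% interval of 0.21 to 2.11. All 4 PAN + MP libraries were above all sham libraries, the lowest by 1.11 times. DESeq2 run on the same counts gave 1.15 with an adjusted p of 0.0404. The authors, whose processing notes also name DESeq2, deposited an adjusted p of 0.0569, so the call depended on the processing. Under pioglitazone the difference from sham was 0.85 ± 0.46 (adjusted p = 0.271), with an interval of -0.13 to 1.83, and 3 of 4 libraries were above all sham libraries.

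Camkv had few reads in sham glomeruli and stood about equally high in every untreated diseased rat, and much of that level remained under either drug. Sham libraries 1 to 4 held 0.396, 0.221, 0.372 and 0.623 CPM, from 5 to 16 reads each. PAN only libraries held 8.68, 7.67, 9.24 and 8.57 CPM, a range of 1.20 times from lowest to highest. Camkv had the narrowest spread of the 4 genes among the PAN only rats, with a coefficient of variation of 7.60% against 46.0% to 56.6% for the others. PAN + MP libraries held 6.70, 7.55, 4.66 and 4.75 CPM. PAN + Pio libraries held 6.02, 3.26, 5.46 and 3.67 CPM. Every drug-treated library lay below the lowest PAN only library, by as little as 1.02 times, and every one was more than 5 times the highest sham library.

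As a description, Camkv was higher in PAN only than in sham by 4.38 ± 0.29 on the log2 scale (SE, n = 4 per group), and against PAN only it stood at -0.53 ± 0.23 under methylprednisolone and -0.89 ± 0.23 under pioglitazone. Camkv remained above sham under both drugs in the comparisons that did not choose it. Under methylprednisolone the difference from sham was 3.85 ± 0.29 (edgeR, adjusted p = 9.53e-06) with a 95% interval of 3.23 to 4.46. Under pioglitazone it was 3.48 ± 0.29 (adjusted p = 1.44e-05), with an interval of 2.87 to 4.10. Among the 17061 tested genes these log2 differences ranked 6 and 11 from the top. Both comparisons share the sham libraries. These were also part of the contrast that chose the gene, which favours a high rank, so nothing is read from the ranks.

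Gprc5a was already present in healthy glomeruli, was higher in PAN only, and overlapped with sham under both drugs. Sham libraries 1 to 4 held 5.50, 6.10, 6.22 and 5.10 CPM, from 125 to 167 reads each. PAN only libraries held 31.0, 40.2, 18.4 and 8.64 CPM. The groups did not overlap, but PAN only library 4 was just 1.39 times the highest sham library, and the PAN only libraries spanned 4.66 times from lowest to highest. PAN + MP libraries held 6.41, 4.94, 6.34 and 4.35 CPM, and PAN + Pio libraries held 4.69, 2.84, 5.87 and 5.33 CPM. Under methylprednisolone 2 libraries were above and 2 below all sham libraries, and under pioglitazone 2 were below all sham libraries and 2 within their range.

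As a description, Gprc5a was higher in PAN only than in sham by 2.10 ± 0.35 on the log2 scale (SE, n = 4 per group), and stood at -2.16 ± 0.35 under methylprednisolone and -2.39 ± 0.36 under pioglitazone against PAN only. In the test against sham, Gprc5a did not pass under either drug. The difference was -0.06 ± 0.35 under methylprednisolone (edgeR, adjusted p = 0.926) with a 95% interval of -0.80 to 0.68. Under pioglitazone it was -0.29 ± 0.35 (adjusted p = 0.631), with an interval of -1.04 to 0.45.

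Gnat2 took a middle course, low in sham, high in PAN only and part of the way back under both drugs. Sham libraries 1 to 4 held 1.94, 1.06, 1.94 and 0.701 CPM, from 18 to 52 reads each. PAN only libraries held 30.4, 43.9, 21.1 and 14.8 CPM. The lowest PAN only library was 7.63 times the highest sham library. PAN + MP libraries held 5.25, 4.04, 5.51 and 5.25 CPM, and PAN + Pio libraries held 5.73, 5.14, 9.86 and 3.10 CPM. All 8 drug-treated libraries lay below all PAN only libraries and above all sham libraries, the lowest under pioglitazone by 1.60 times.

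As a description, Gnat2 was higher in PAN only than in sham by 4.28 ± 0.42 on the log2 scale (SE, n = 4 per group), and stood at -2.46 ± 0.37 under methylprednisolone and -2.21 ± 0.37 under pioglitazone against PAN only. Gnat2 remained above sham under both drugs in the comparisons that did not choose it. Under methylprednisolone the difference from sham was 1.83 ± 0.40 (edgeR, adjusted p = 0.0115) with a 95% interval of 0.97 to 2.68. Under pioglitazone it was 2.07 ± 0.40 (adjusted p = 0.00905), with an interval of 1.22 to 2.93. Without the sham and the pioglitazone library with an extra tag in their column names, the second of these was 1.60 ± 0.43 with an adjusted p of 0.0623. That pioglitazone library was the highest of its group at 9.86 CPM. In the annotation of build GRCr8, Gnat2 overlaps Gnai3, an inhibitory G alpha subunit gene, and the sources used here do not say whether the counting used strand. Gnai3 stood at 278 ± 27.5 CPM in sham and 277 ± 21.0 CPM in PAN only (SD, n = 4), with a log2 difference of 0.00 ± 0.11 and an adjusted p of 0.98.

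**Figure D1:**
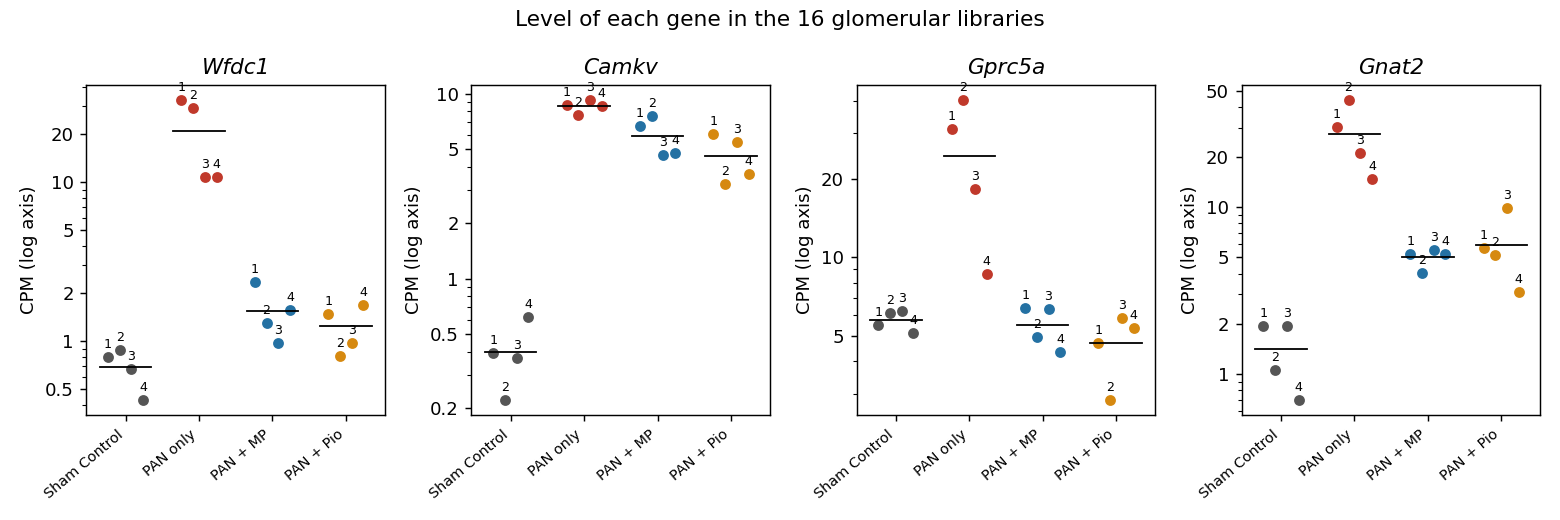
Level of each gene in CPM on a log axis, with 1 point per library, the library number above it, and a bar at the group mean (4 libraries per group). Camkv stays at 3.26 CPM or more in the drug-treated libraries, against at most 0.623 CPM in sham, while Gprc5a in drug-treated libraries lies between 2.84 and 6.41 CPM, around the sham libraries at 5.10 to 6.22 CPM.

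Set side by side, all 4 genes were among those called higher in PAN only than in sham (adjusted p under 0.05), a contrast used to choose them, where 10.4% of all tested genes were called higher. Against PAN only, 3 of the 4 were called lower under methylprednisolone, where 5.31% of tested genes were, and all 4 under pioglitazone, where 2.85% were. Nothing is read from these counts, since they are what the genes were chosen for. The count under pioglitazone was 3, without Camkv, when any 1 of 9 of the 16 libraries was left out, among them each PAN only library. In the comparisons with sham that did not choose them, 2 of the 4 genes, Camkv and Gnat2, were called higher under methylprednisolone, against 5.98% of tested genes. The same 2 were called higher under pioglitazone, against 3.0% of tested genes. Wfdc1 and Gprc5a were not called in either. The sham libraries of these comparisons took part in the choice of the genes, which favours calls above sham.

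**Figure D2:**
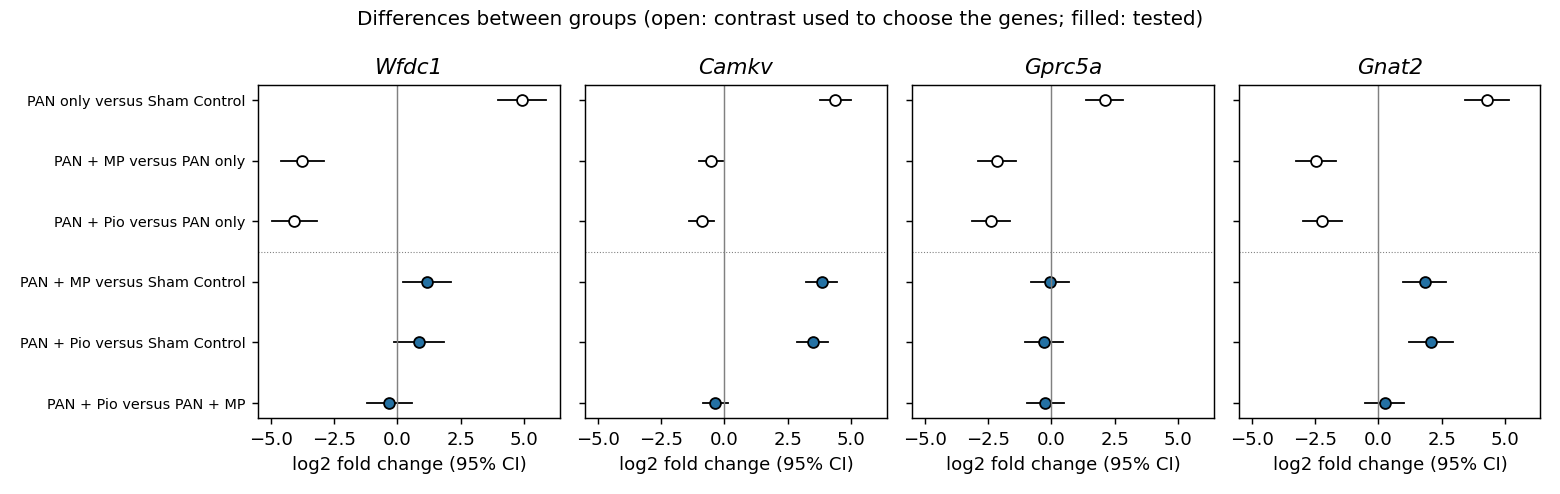
Log2 fold change of each gene in 6 comparisons of groups (point) with its 95% interval (line) from edgeR, 4 libraries per group. Open points are contrasts that chose the genes, filled points were tested. Camkv lies at 3.85 and 3.48 above sham under the drugs, and the intervals of Gprc5a against sham span 0.

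How far each gene was from sham under treatment can be placed on a scale where the sham mean is 0% and the PAN only mean is 100%. Camkv stood at 67.7% ± 17.7 under methylprednisolone and 51.6% ± 16.5 under pioglitazone (SD, n = 4). Its drug-treated libraries ran from 35.1% to 87.9%. Gnat2 stood at 13.8% ± 2.53 and 17.4% ± 10.8. Wfdc1 stood at 4.26% ± 2.89 and 2.72% ± 2.09, and Gprc5a at -1.18% ± 5.46 and -5.57% ± 7.01. No drug-treated library of Wfdc1, Gprc5a or Gnat2 reached the lowest Camkv library, the highest being Gnat2 in PAN + Pio library 3 at 32.3%. The PAN only mean that sets the scale belongs to a group the genes were chosen on, so these positions are a description.

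**Figure D3:**
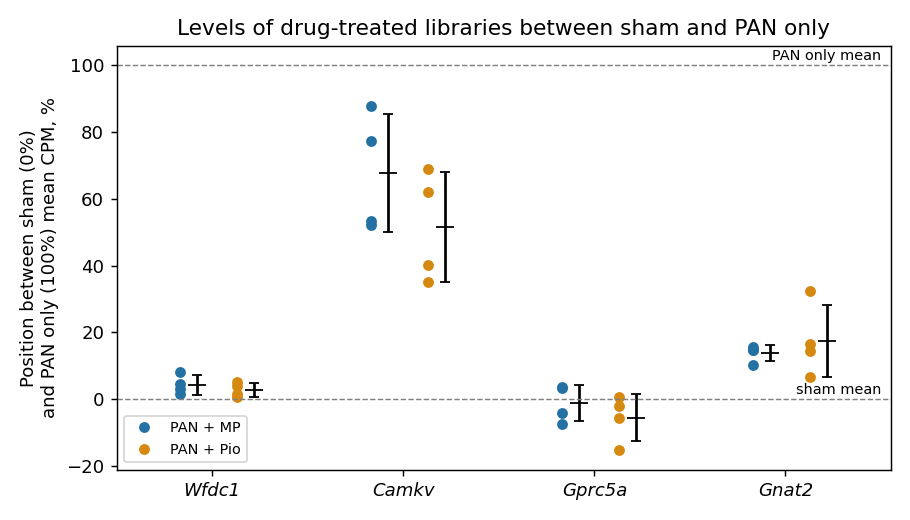
Level of each drug-treated library on a scale from the mean CPM of Sham Control (0%) to that of PAN only (100%), with 1 point per library and the group mean with its SD beside it (n = 4). On this scale Camkv lies at 35.1% to 87.9%, Gnat2 at 6.48% to 32.3%, Wfdc1 at 0.55% to 8.19% and Gprc5a at -15.4% to 3.60%. A low position need not be a level near sham: mean Wfdc1 was 2.24 and 1.79 times the sham mean under methylprednisolone and pioglitazone.

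The drugs were compared with each other to see whether the genes told them apart. None of the 4 genes was called in PAN + Pio versus PAN + MP by edgeR's test, where 0.428% of tested genes were called higher and 0.205% lower. None had an unadjusted p under 0.05, and DESeq2 called none. The log2 difference was -0.31 ± 0.42 for Wfdc1 with an interval of -1.20 to 0.57, and -0.36 ± 0.23 for Camkv with an interval of -0.85 to 0.13 (SE, n = 4 per group). It was -0.23 ± 0.35 for Gprc5a with an interval of -0.98 to 0.51, and 0.25 ± 0.36 for Gnat2 with an interval of -0.52 to 1.02. The intervals leave room for differences of 2-fold or more in Wfdc1 and Gnat2, so they do not show that the drugs act alike on these genes. The adjusted p-values were 0.736 for Camkv and 0.919 to 0.935 for the others.

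Among the PAN only rats 3 of the genes were high and low in nearly the same libraries. Wfdc1, Gprc5a and Gnat2 were each higher in PAN only libraries 1 and 2 than in 3 and 4, and all 3 were lowest in library 4. Camkv did not share this order, with its lowest level in library 2 and its highest in library 3. Markers of other cells varied over the same libraries. The 10 markers of mesangium and smooth muscle, all of them measured, summed to 2741, 3424, 2277 and 2418 CPM in PAN only libraries 1 to 4, and 9 measured macrophage markers to 214, 248, 177 and 165 CPM. The 10 striated muscle markers summed to 1767, 1745, 1003 and 1146 CPM. Both sums of contractile genes, which share Des, and the macrophage sum were thus higher in libraries 1 and 2, as were the 3 genes. So were the airway and alveolar markers, at 133, 155, 128 and 127 CPM, and the cone markers, at 15.1, 22.9, 14.4 and 13.9 CPM. This order was therefore not particular to contractile or macrophage genes. Endothelial markers did not follow it, at 5011, 6238, 4240 and 5079 CPM, nor did those of parietal epithelium, distal nephron and neurons. The fibroblast sum was 262, 96.3, 113 and 497 CPM, highest in library 4 and lowest in library 2. The 12 markers of the proximal tubule, a possible carry-over of glomerular isolation, ran otherwise, at 6301, 2308, 9858 and 7102 CPM.

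Marker levels also differed between groups. The counts of markers that rose or fell in PAN only versus sham stand beside 10.4% of all tested genes that rose and 8.52% that fell. The summed level of the mesangial and smooth muscle markers was 1404 to 2085 CPM in sham, 2277 to 3424 in PAN only, 1480 to 1634 in PAN + MP and 1497 to 1686 in PAN + Pio. In PAN only 4 of the 10 rose, Acta2, Cnn1, Des and Tagln, and none fell. Among those not called, Pdgfrb stood at 482 ± 158 CPM in sham and 485 ± 107 CPM in PAN only (SD, n = 4). Gata3 stood at 132 ± 28.2 and 110 ± 19.1 CPM. The rise of the sum was thus not shared by all markers of the list. Macrophage markers summed to 90.0 to 131 CPM in sham, 165 to 248 in PAN only, 58.8 to 126 in PAN + MP and 74.3 to 113 in PAN + Pio, and Csf1r, Cx3cr1, Gpnmb and Mrc1 rose in PAN only, 4 of the 8 tested. Striated muscle markers summed to 356 to 427 CPM in sham, 1003 to 1767 in PAN only, 659 to 775 in PAN + MP and 643 to 878 in PAN + Pio, and of the 6 tested Acta1, Actc1, Des and Ttn rose in PAN only while Tnnc1 fell. Other striated muscle markers had few reads: Ckm had at most 1 in any library, Myh6 at most 4, Mybpc3 at most 8 and Myh7 at most 10. Des is in both lists of contractile genes, and alone stood at 129 to 185 CPM in sham and 637 to 1264 CPM in PAN only. Fibroblast markers summed to 24.2 to 31.9 CPM in sham, 96.3 to 497 in PAN only, 71.8 to 174 in PAN + MP and 96.4 to 299 in PAN + Pio, and Col1a1, Col3a1 and Dcn rose in PAN only, 3 of the 4 tested. Col1a1 made up most of this sum in PAN only, at 67.5 to 480 CPM, against 10.2 to 18.5 CPM in sham. Col1a2, Lum and Postn had at most 7, 5 and 12 reads in any library. Endothelial markers summed to 6198 to 8156 CPM in sham, 4240 to 6238 in PAN only, 5403 to 5819 in PAN + MP and 4981 to 5917 in PAN + Pio, and 6 of 8 fell in PAN only, Ehd3, Emcn, Flt1, Kdr, Plat and Tie1. Of the podocyte markers reported here, Magi2, Ptpro and Synpo fell in PAN only and Nes rose. The part of these cells in the levels of the 4 genes was not tested. The sum of the proximal tubule markers overlapped between groups, at 3480 to 7443 CPM in sham, 2308 to 9858 in PAN only, 5575 to 8511 in PAN + MP and 5273 to 7176 in PAN + Pio. With their level as a covariate, the differences of Camkv and Gnat2 from sham were still called under both drugs, and those of Wfdc1 and Gprc5a were still not called. No such fit was made with the other marker lists, and the part of tubule cells in these levels was not tested.

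Several markers of the cells in which Gnat2, Camkv and Gprc5a are best known were at or near 0, while other genes of the same lists were well measured. For cones, the opsins Opn1sw and Opn1mw had at most 1 and 2 reads in any library. Of 8 cone markers 3 had at most 3 reads in every library, as had 12 of 28 genes of cone and rod phototransduction. Gngt2, the cone transducin gamma subunit, stood at 18.5 ± 4.78 CPM in sham and 16.4 ± 4.13 CPM in PAN only (SD, n = 4). For neurons, Stmn2 had no read in any of the 16 libraries and Snap25 at most 2, and 10 neuronal markers summed to 1.98 to 5.13 CPM in sham and 3.96 to 5.06 CPM in PAN only. Syt1 and Rbfox3 had up to 50 and 59 reads in a library. Of the 10 markers 5 were tested, and in PAN only versus sham Camk2a rose and none fell. Of all tested genes 10.4% rose and 8.52% fell. For lung epithelium, the surfactant gene Sftpc had at most 1 read in any library, and 6 of 8 airway and alveolar markers had at most 3. The other 2 were Hopx, at 113 ± 23.3 CPM in sham and 131 ± 12.8 CPM in PAN only, and Ager, which fell from 12.1 ± 1.32 to 4.94 ± 1.52 CPM (SD, n = 4), so that the summed level of the list was 97.4 to 149 CPM in sham and 127 to 155 CPM in PAN only.

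The relatives of Wfdc1 mostly had few reads. Of 26 listed genes, which have WAP domains except for the Kazal-type inhibitor gene Spink8, 23 were in the table, 10 of these had at most 3 reads in every library, and 5 were tested. In PAN only versus sham 1 of the 5 rose and none fell, where 10.4% of all tested genes rose and 8.52% fell. The gene that rose was Wfikkn2, a secreted protein with WAP and Kunitz domains that binds the growth factor myostatin, which went from 0.117 ± 0.101 CPM in sham to 0.894 ± 0.433 CPM in diseased glomeruli (SD, n = 4), a log2 rise of 2.92 ± 0.54 (SE; edgeR, adjusted p = 0.00151). It also stood above sham under methylprednisolone, by 1.90 ± 0.57 with an adjusted p of 0.039. The median log2 difference of the 5 in PAN only versus sham was -0.60, against 0.01 over all tested genes. Wfdc2, an epithelial member of the family, had 4.23 ± 0.594 CPM in sham and 4.27 ± 0.826 CPM in PAN only, and Slpi, a leukocyte protease inhibitor, had -0.60 ± 0.48 on the log2 scale with an adjusted p of 0.39.

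Around Camkv, 26 of 28 kinases of the calmodulin-dependent family and calmodulins were tested, and 6 rose and 2 fell in PAN only versus sham, with a median log2 difference of 0.07. Of all tested genes 10.4% rose and 8.52% fell. Dclk1, a microtubule-associated kinase, went from 3.94 ± 0.889 CPM in sham to 29.9 ± 9.09 CPM in diseased glomeruli (SD, n = 4), a log2 rise of 2.93 ± 0.29 (SE; edgeR, adjusted p = 1.02e-05). Like Camkv it stayed above sham under both drugs, by 2.04 ± 0.28 with an adjusted p of 9.2e-04 under methylprednisolone and by 1.74 ± 0.28 with an adjusted p of 0.0031 under pioglitazone. Camk2a, a kinase of neuronal synapses, rose from 0.105 ± 0.0905 to 0.529 ± 0.160 CPM with an adjusted p of 0.012, and Camk2b rose by 1.34 ± 0.29 with an adjusted p of 0.00447. Mylk2, the myosin light chain kinase of skeletal muscle, rose by 1.36 ± 0.34 with an adjusted p of 0.012 and fell by 1.39 ± 0.34 under methylprednisolone against PAN only with an adjusted p of 0.0162. Phkg1, a catalytic subunit of phosphorylase kinase, and Dapk1, a kinase of cell death, were the genes that fell. Under methylprednisolone against PAN only 5 fell and none rose, where 5.31% of all tested genes were called lower and 3.31% higher. Under pioglitazone 2 fell and none rose, where 2.85% were called lower and 0.832% higher. Against sham 3 were higher and 2 lower under methylprednisolone, where 5.98% of all tested genes were higher and 6.72% lower. Under pioglitazone 1 was higher and none lower, where 3.0% were higher and 2.09% lower. Of the nearest relatives of Camkv, Camk1 had 53.3 ± 3.19 CPM in sham and 60.6 ± 5.08 CPM in PAN only with an adjusted p of 0.14, and Pnck had at most 3 reads in every library.

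Gprc5a has 3 relatives, of which 2 were tested, with a median log2 difference of -0.36 in PAN only versus sham, and neither rose. Gprc5b, an orphan receptor of the same family, fell from 16.2 ± 1.99 to 9.17 ± 1.41 CPM (SD, n = 4), a log2 difference of -0.82 ± 0.19 (SE; edgeR, adjusted p = 0.00736). It was higher under methylprednisolone than in PAN only, by 0.67 ± 0.19 with an adjusted p of 0.038, and under pioglitazone it was lower than in sham, at -0.75 ± 0.19 with an adjusted p of 0.035. Gprc5c stood at 0.10 ± 0.19 in PAN only versus sham with an adjusted p of 0.74. Gprc5a is known as a retinoic acid-induced gene, and 23 of 27 listed genes of retinoic acid handling and response were tested. In PAN only 3 of them rose and 4 fell, with a median of 0.18, where 10.4% of all tested genes rose and 8.52% fell. Lrat, which esterifies retinol, rose from 0.206 ± 0.143 to 0.877 ± 0.485 CPM with an adjusted p of 0.0085. Rarres1 and Rarres2, named for their response to retinoids, rose by 1.66 ± 0.38 and 0.69 ± 0.13. The receptor genes Rara, Rarg and Rxrb and the retinaldehyde reductase gene Dhrs3 fell, Rarg by 0.85 ± 0.15 with an adjusted p of 0.00118. Under methylprednisolone against PAN only 2 rose and 2 fell, where 3.31% of all tested genes were called higher and 5.31% lower. Among the 2 that rose was Aldh1a3, an enzyme of retinoic acid synthesis, higher by 0.90 ± 0.19 with an adjusted p of 0.00697.

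Of 15 other G alpha subunit genes 13 were tested, and in PAN only versus sham none rose and 1, Gnas, fell, by 0.30 ± 0.07 on the log2 scale (SE, n = 4 per group; edgeR, adjusted p = 0.00974). The median of the 13 was -0.15, and of all tested genes 10.4% rose and 8.52% fell in PAN only. Gnat1, the subunit of rod transducin, had 1.85 ± 0.520 CPM in sham and 1.13 ± 0.282 CPM in PAN only (SD, n = 4), with an adjusted p of 0.087. Gna15, a subunit of blood cells, fell by 1.01 ± 0.23 under methylprednisolone against PAN only with an adjusted p of 0.0123. Of 28 genes of cone and rod phototransduction 6 were tested, and 2 fell and none rose in PAN only, beside the same shares of all tested genes, with a median of -0.14. Gucy2e, a retinal guanylate cyclase, fell from 11.3 ± 3.33 to 2.91 ± 1.21 CPM, by 1.95 ± 0.28 with an adjusted p of 1.87e-04. It was higher again under methylprednisolone and pioglitazone than in PAN only, by 1.03 ± 0.27 and 1.05 ± 0.27 with adjusted p of 0.027 and 0.045.

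**Figure D4:**
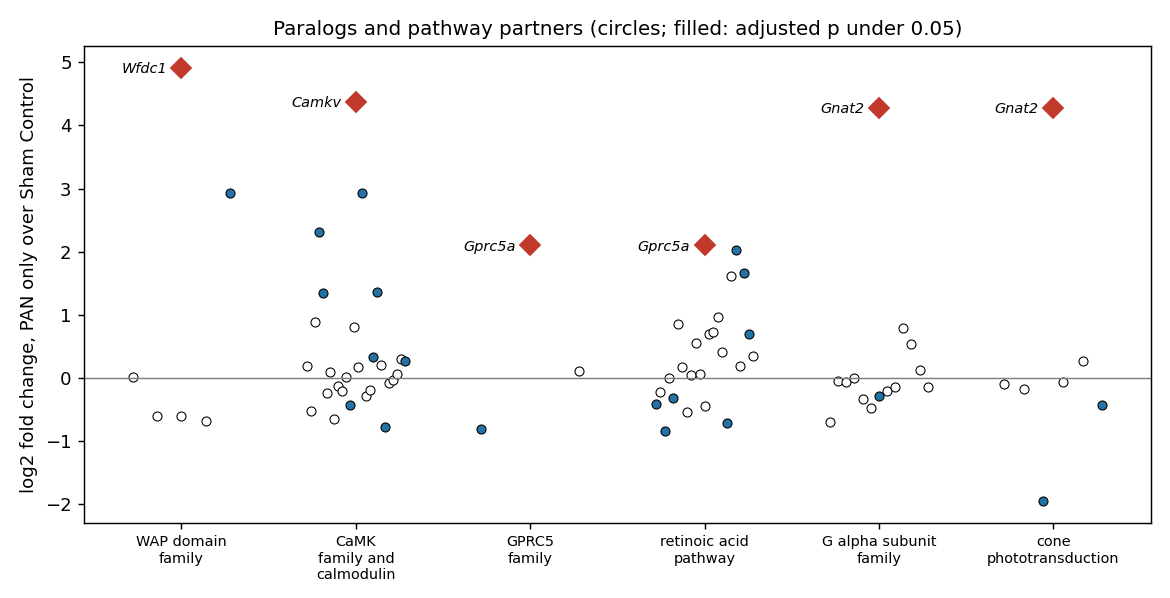
Log2 fold change of PAN only over Sham Control for tested relatives and pathway partners of the 4 genes (circles, filled where the adjusted p was under 0.05) and for the genes themselves (red diamonds, Gprc5a and Gnat2 in 2 columns each). In each column the red diamond lies above all tested relatives, the nearest being Lrat at 2.03 beside Gprc5a at 2.10. The genes were chosen for large changes, so their place at the top is no result.

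The genes whose profile lay nearest to each of the 4 were found by the root mean square difference in log2 CPM over the 16 libraries, after centring each gene on its own mean, where 0 would be the same profile. For Camkv the nearest were Myom2, a protein of the sarcomere M-band, at 0.52, Dusp27, an atypical phosphatase of striated muscle, at 0.61, and Pgam2, the muscle phosphoglycerate mutase, at 0.70, followed by LOC102554935 at 0.72 and Srpx2 at 0.75. Myom2 went from 28.3 ± 4.57 CPM in sham to 273 ± 36.7 in PAN only, 211 ± 52.1 under methylprednisolone and 214 ± 87.7 under pioglitazone (SD, n = 4). Since the nearest genes were picked on these same libraries, their differences between groups are given as values with no test.

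For Wfdc1 the nearest were Flnc, the muscle filamin, at 0.64, Trim72, a membrane repair protein of striated muscle, at 0.68, and Actc1, cardiac muscle actin, at 0.82, followed by Iqsec3 at 0.84 and the procollagen peptidase Adamts14 at 0.85. Flnc went from 0.764 ± 0.317 CPM in sham to 15.6 ± 16.7 in PAN only, 1.27 ± 0.411 in PAN + MP and 1.51 ± 0.602 in PAN + Pio. For Gnat2 they were Sstr3, a somatostatin receptor, at 0.49, Trim72 at 0.60, Atp2a1, the calcium pump of fast-twitch muscle, at 0.61, Adamts14 at 0.62 and Map1a, a microtubule-associated protein, at 0.65. Trim72 and Adamts14 thus stood in the lists of both Wfdc1 and Gnat2, 2 of 5 in each, and the other pairs of genes shared none.

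For Gprc5a 4 of the 5 nearest genes are given. They were LOC682408 at 0.41, Gpnmb, a glycoprotein of lipid-laden macrophages and 1 of the 9 macrophage markers, at 0.42, the collagen gene Col5a3 at 0.46 and Gtse1, a gene of the G2 and S phases, at 0.48. Gpnmb went from 6.09 ± 1.23 CPM in sham to 31.7 ± 11.6 in PAN only, 5.46 ± 1.90 under methylprednisolone and 5.82 ± 1.05 under pioglitazone (SD, n = 4). The choice of nearest genes depended on the measure: with 1 minus Pearson's correlation as the distance, each of the 4 genes kept 1 of its 5 nearest genes. With a prior count of 0.5 in place of 2, Wfdc1 kept 3 of 5, Gnat2 kept 4, and Camkv and Gprc5a kept all 5.

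**Figure D5:**
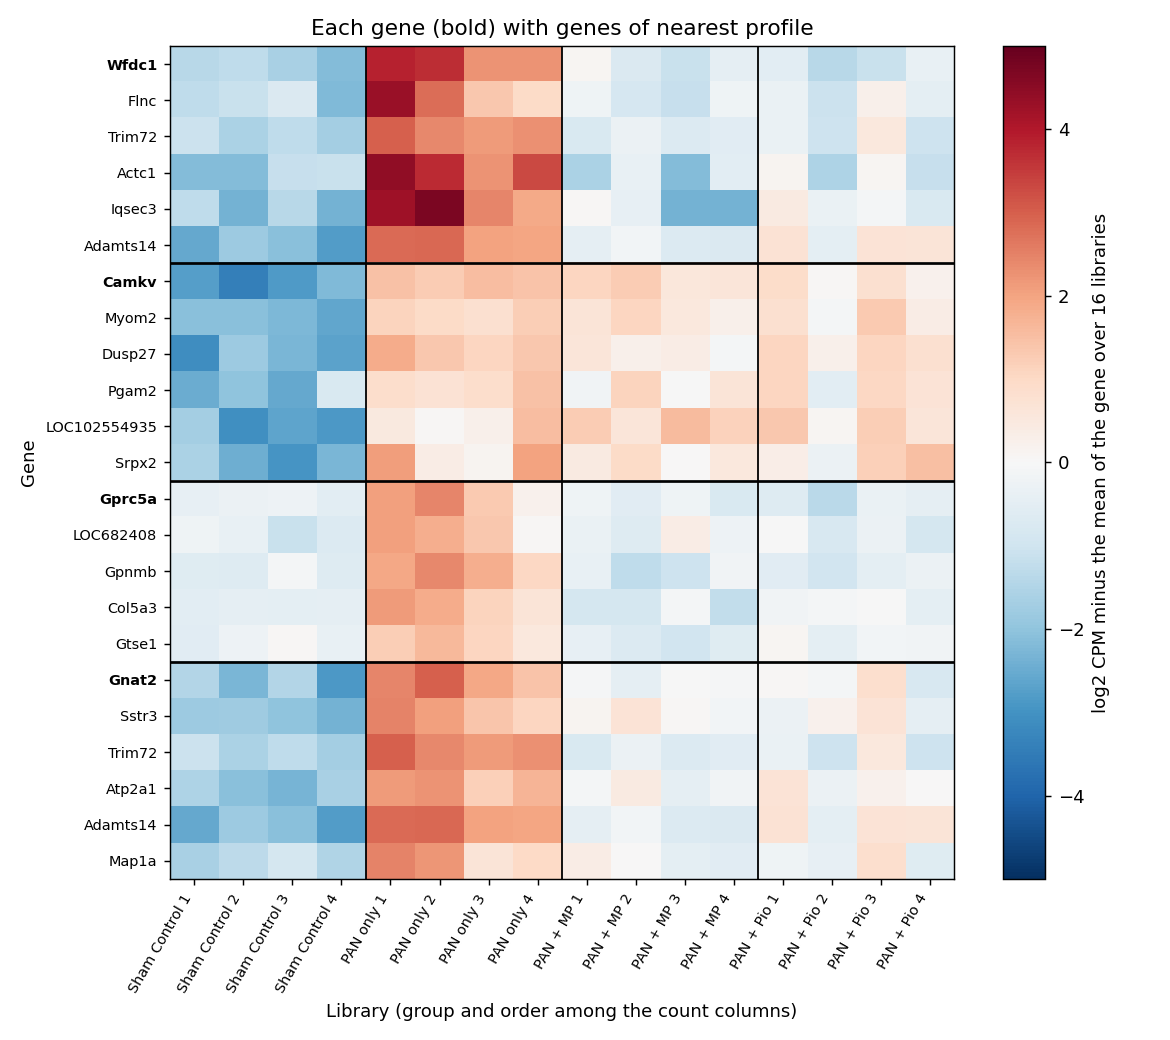
Log2 CPM of each gene (bold) and its nearest genes in every library (5 each, and 4 for Gprc5a), centred on the mean of the gene over the 16 libraries (colour), with vertical lines between groups. The Camkv block stays above its mean in most drug-treated libraries, whereas the Gprc5a block is above its mean mainly in PAN only, most in libraries 1 and 2.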

How the data were processed

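Total RNA from rat glomeruli (350 ng, with ribosomal and globin transcripts removed) was made into stranded libraries, per the labels' protocols. The submitters' processing notes name cutadapt, STAR, HTSeq 0.6.1p1, DESeq2 and the build Rnor_6.0. The raw read counts per gene were deposited by the authors with their own log2 fold changes and adjusted p-values, which are quoted only where named as theirs. The 16 deposited normalised per-sample columns were not used. Count columns were matched to groups by name, and they carry no replicate numbers. Those of the untreated diseased rats also carry the word "high", which no label explains.

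Genes were kept by edgeR's filter at a minimum count of 10, which left 17061 of 36351. Counts were scaled by TMM factors (0.951 to 1.05) and fitted with 1 term per group over all 16 libraries by edgeR 4.0.16 in R 4.3.3 (12 residual degrees of freedom). Two-sided quasi-likelihood tests were adjusted by Benjamini-Hochberg over all tested genes, and called at 0.05. A prior count of 2 entered the log2 levels. The procedure was tested on simulated data. The alternatives were DESeq2 1.42.0, other scaling, no filter, only the groups compared, robust dispersion, a tubule marker covariate, left-out libraries, and another distance and prior count for the nearest genes.

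The 4 genes, the gene lists and the markers were chosen with earlier results of these data known. Named beside them are up to 6 called genes of each family list by size of change, set paralogs, neighbouring genes and the 5 nearest profiles; Dapk1, Rara, Rxrb, Spink8 and the markers given singly were named after their values were seen. Levels were not compared between genes, since they are not per length. Promoter sequence and gene neighbours came from RefSeq tables of GRCr8, and no coordinate was carried over to Rnor_6.0. A gene among the nearest and some podocyte markers are not reported here.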

Additional observations from a re-analysis of the deposited data

How the results depend on the processing

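For the 4 genes, 286 of the 288 recomputed values of the tested comparisons kept their direction or side of the threshold, and the 2 exceptions were Wfdc1 under methylprednisolone against sham, called by DESeq2 (1.15), and Gnat2 under pioglitazone against sham, not called without the tagged libraries (1.60). Leaving out each library in turn gave 3.66 to 4.13 and 3.29 to 3.76 for Camkv against sham under methylprednisolone and pioglitazone, and 1.59 to 2.02 and 1.72 to 2.29 for Gnat2. Uncalled values changed sign: Gprc5a under methylprednisolone against sham ran from -0.15 to 0.25, and Gnat2 between the drugs from -0.11 to 0.46. Counts of called genes moved more. PAN only versus sham had 3231, or 2051 with only those groups in the fit, and 1978 to 4071 with a library left out. Methylprednisolone against PAN only had 1470 (946 to 1627), and pioglitazone 628 (276 to 751; DESeq2 1107), with 3 to 4 of the 4 genes called. Methylprednisolone against sham had 2167 (725 to 2636), or 886 with the tubule covariate. Pioglitazone against sham had 867 (334 to 1234), 1780 with DESeq2, 509 with only those groups and 507 without the tagged libraries. Pioglitazone against methylprednisolone had 108 (0 to 136), 298 with DESeq2, 172 with only those groups, 189 with the covariate and 15 without the tagged libraries. The causes were not tested. No paired analysis was possible because the count columns carry no replicate numbers. Sham values of Wfdc1, Camkv and Gnat2 rest on 5 to 52 reads a library, which limits the precision of their folds.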

Other observations

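Genes beside the 4 on the chromosome were looked up in the annotation of build GRCr8. Traip, an E3 ubiquitin ligase gene next to Camkv, was higher in PAN only than in sham by 2.31 ± 0.40 on the log2 scale (SE, n = 4 per group; edgeR, adjusted p = 9.6e-04). It stood at -2.63 ± 0.41 under methylprednisolone and -1.71 ± 0.39 under pioglitazone against PAN only. Ampd2, an AMP deaminase gene next to Gnat2, was higher in PAN only than in sham by 0.99 ± 0.14 with an adjusted p of 2.2e-04. Hebp1, a heme-binding protein gene next to Gprc5a, was lower under pioglitazone than under methylprednisolone, at -1.22 ± 0.22 (adjusted p = 0.023). Other neighbours changed little between sham and PAN only or had few reads. Mon1a, also beside Camkv, had 23.5 ± 1.79 and 23.6 ± 0.915 CPM (SD, n = 4). Ddx47, also beside Gprc5a, had 68.7 ± 6.26 and 70.8 ± 3.75 CPM. Beside Wfdc1, Kcng4 had 0.449 ± 0.381 and 0.278 ± 0.136 CPM, and Cotl1 had 35.2 ± 7.86 and 41.8 ± 7.91 CPM.

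In the authors' deposited table, the log2 fold changes of PAN only over control were 4.83 for Wfdc1, 4.34 for Camkv, 1.98 for Gprc5a and 4.20 for Gnat2. In the authors' deposited table, Wfdc1 stood at 0.61 over control under methylprednisolone and 0.11 under pioglitazone, against 1.16 ± 0.45 and 0.85 ± 0.46 in the fit to the counts. In the authors' deposited table the same values were 3.797 and 3.431 for Camkv, -0.02 and -0.06 for Gprc5a, and 1.62 and 1.90 for Gnat2. In the authors' deposited table, those of methylprednisolone over pioglitazone lay between -0.0029 and 0.0154 for the same genes. For Camkv, the fit to the counts gave -0.36 ± 0.23 for pioglitazone over methylprednisolone, the reverse order of the groups. The authors' values and those of the fit may be unlike measures, and the reason why they differ in size was not tested.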
